A study of Mus musculus with 12 samples.

Results

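The kidneys of diabetic mice labelled as having GABP knocked down (db/db-GABP-KD, 3 libraries) were compared with those of lean mice given vehicle (db/m-veh, 3 libraries, also called lean libraries below). The question was which differences between diabetic and lean mice remained under the knockdown label. Members were all nuclear genes with at least 0.3 FPKM (fragments per kilobase of exon, scaled to the size of the library) in 3 or more of these 6 libraries, which left 11915 of the 21899 genes in the table. Of the other nuclear genes, 4527 had some signal in the 6 libraries and 5444 were listed at 0 in all of them. The third-highest value decided membership: 285 members lay just inside, under 0.35 FPKM, and 268 genes lay just outside, at 0.25 FPKM or more. A member under 0.3 FPKM in all libraries of a group passed only through the other group. Its direction and lack of overlap then followed from the filter and add no support. Among genes described below these include Fpr2, Ugt1a2, Ugt1a10, Krt20, Akr1c18, Acsm3, Hsd17b2, Slc22a26, Slco1a1, Smlr1, Ttr, Tlr12 and Tff1.

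The series held 12 kidney poly(A) libraries in 4 groups of 3. db/db mice carry a defective leptin receptor gene, which makes them obese and diabetic, whereas heterozygous db/m mice stay lean. The 2 groups compared here therefore differ in 2 ways at once, in genotype (db/db against db/m) and in treatment (GABP knockdown against vehicle). These cannot be told apart in a single contrast. The third group used below, db/db-veh, was diabetic and received vehicle. Kidney tissue of 6 mice per group was used and 3 tissues were mixed for each extraction, so each value is that of a pool. Because 6 tissues fill 2 such pools, the 3 libraries of a group may share animals, and p-values then measure only the spread between these libraries, which may be technical. The means used to lower GABP, the cells reached, the sex and the age of the mice are likewise not given in the sources used here.

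GABP is a transcription factor built from an alpha subunit, which binds the DNA sequence recognised by the ETS family, and a beta subunit, which activates transcription. It is known for binding the promoters of many housekeeping genes, among them genes for mitochondrial proteins. Most RNA of the kidney cortex comes from the proximal tubule, whose cells take up organic anions through carriers of the SLC22 and SLCO families and modify steroids and drugs with cytochrome P450 enzymes, aldo-keto reductases and UDP-glucuronosyltransferases. In mice many of these genes are known to respond to androgen, and Kap, the kidney androgen-regulated protein gene, is the usual example.

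Libraries held 6.81 to 9.34 M fragments in db/m-veh and 7.03 to 8.58 M in db/db-GABP-KD (M, mega). The 13 mitochondrially encoded genes took 67.9%, 77.8% and 69.8% of the fragments in db/m-veh 1, 2 and 3, and 47.9%, 75.5% and 74.1% in db/db-GABP-KD 1, 2 and 3. Their mean share was 71.8% ± 5.28 (SD, n = 3) against 65.9% ± 15.5 (exact permutation p = 0.8, two-sided; 0.1 is the smallest p that 3 against 3 libraries allow), and db/db-GABP-KD 1 alone stood low. FPKM divides by all fragments, so every nuclear gene in that library was raised relative to the others: its median-of-ratios factor, the typical ratio of its nuclear genes to the average library, was 1.71, against 0.820 to 1.08 in the other 5 libraries. All results are therefore given on 2 scales, as deposited and after division by these factors. Without db/db-GABP-KD 1, the share of the remaining 2 libraries was 3.03 percentage points above that of db/m-veh. The 4 Y-linked genes listed were detected in every library and none of them passed the test, and the adrenal genes Cyp11a1, Cyp11b1 and Cyp21a1 were listed at 0 in all 6 libraries.

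**Figure D1:**
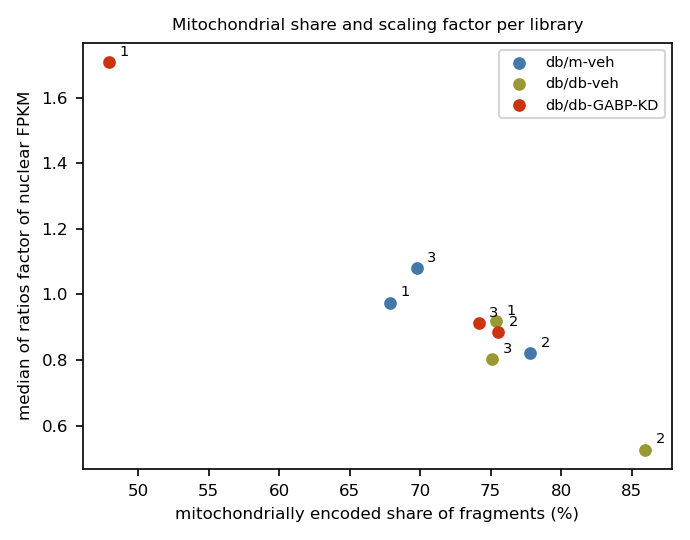
Share of fragments from the 13 mitochondrially encoded genes (x axis, %) and median-of-ratios factor of the nuclear genes (y axis, no unit) in 9 libraries, 1 point per library, numbered by replicate and coloured by group. db/db-GABP-KD 1 has the lowest share (47.9%) and the highest factor (1.71), while db/db-GABP-KD 2 and 3 lie within the range of the vehicle libraries.

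The level of the targeted factor tests the labels before any other result. Gabpa (ENSMUSG00000008976, GRCm38 chromosome 16, 84834925 to 84863779, plus strand) stood at 1.79, 2.32 and 2.54 FPKM in db/m-veh 1, 2 and 3 and at 6.62, 2.66 and 3.40 FPKM in db/db-GABP-KD 1, 2 and 3. All 3 libraries labelled GABP-KD lay above all 3 of db/m-veh, so this comparison, which also differs in genotype, does not show the lower Gabpa RNA that the label implies. The mean level was 2.22 ± 0.388 against 4.23 ± 2.10 FPKM (SD, n = 3 each), a ratio of 1.91, or of 1.51 once scaled by median of ratios (exact permutation p = 0.1 for each). In the limma fit over all genes the log2 fold change was 0.72 (SE 0.34, adjusted p = 0.603) as deposited and 0.52 (SE 0.26, adjusted p = 0.493) after median of ratios, neither past the threshold. In db/db-veh, which shares the genotype, Gabpa stood at 2.20, 2.17 and 1.63 FPKM, below all 3 libraries labelled GABP-KD (0.84, limma adjusted p = 0.344). After median of ratios the 2 db/db groups overlapped, at 2.40, 4.12 and 2.03 in db/db-veh against 3.87, 3.01 and 3.73 (0.31, limma adjusted p = 0.899). Exons of Gabpa overlap those of Atp5j on the other strand, it is not known here whether counting used strand, and RNA levels do not report on protein. The beta subunit genes Gabpb1 (1.08 ± 0.217 against 2.14 ± 1.84 FPKM, exact permutation p = 0.5, n = 3 each) and Gabpb2 (0.481 ± 0.196 against 0.695 ± 0.083 FPKM, exact permutation p = 0.3) overlapped between the groups. Gli1, a Hedgehog effector named in the title of the series, stood at 0.160 ± 0.089 against 0.044 ± 0.036 FPKM (exact permutation p = 0.2) and failed the filter, so it is no member. Directions below refer to the libraries labelled GABP-KD.

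Compared with lean kidney, the libraries labelled GABP-KD held far less RNA for single genes of steroid metabolism and organic anion transport, with Kap at -5.25 on the log2 scale after median of ratios and Slc22a30 at -4.25, while most members of either list did not pass. Globin genes fell too (Hba-a1, -3.66). Rises that were called whichever library was left out were those of Cep85 (2.96), Cnbd2 (2.55) and Ugt1a2 (5.62). Ugt1a2 passed the filter only through the libraries labelled GABP-KD, so its direction followed from the filter. As deposited, 41 of the 11915 genes passed the test (limma, Benjamini-Hochberg adjusted p under 0.05; 0.344% of the genes tested), 15 higher (0.126%) and 26 lower (0.218%) in db/db-GABP-KD. After median of ratios 64 passed (0.537%), 13 higher (0.109%) and 51 lower (0.428%). The median log2 fold change of all genes moved from 0.18 to 0.01 between the scales, and with it the share of lower calls. On both scales 37 genes were called (0.311%), 11 higher (0.0923%) and 26 lower (0.218%), and the 26 lower calls as deposited were all called after median of ratios as well. The groups did not overlap, higher in db/db-GABP-KD, for 9.2% of genes as deposited and 6.8% after median of ratios, and, lower, for 3.82% and 8.35%. Unadjusted p was under 0.05 for 976 and 1308 genes. Leaving out db/db-GABP-KD 2 left 18 and 17 called, whereas leaving out db/db-GABP-KD 1, the library that stands apart, gave 63 (33 higher, 30 lower) and 73 (36 higher, 37 lower). Counts without db/db-GABP-KD 3 were 29 and 34, those without db/m-veh 1 were 19 and 34, and those without db/m-veh 3 were 25 and 32. Every called gene kept its sign under all alternatives, and Akr1c14, Akr1c18, Cep85, Cnbd2, Cyp2a4, Gm853, Kap, Slc22a28, Slc22a30, Slc22a7 and Ugt1a2 remained called on both scales whichever 1 of the 6 libraries was left out. For Akr1c18 and Ugt1a2, which passed the filter through a single group, this adds no support to the direction. Gm853 held 9 fragments over the libraries labelled GABP-KD and 618 over the lean ones. With voom on recovered fragments, however, Akr1c18 missed the threshold on both scales (adjusted p = 0.0903 as deposited and 0.135 after median of ratios), and Ugt1a2 (0.0704) and Gm853 (0.0637) after median of ratios.

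**Figure D2:**
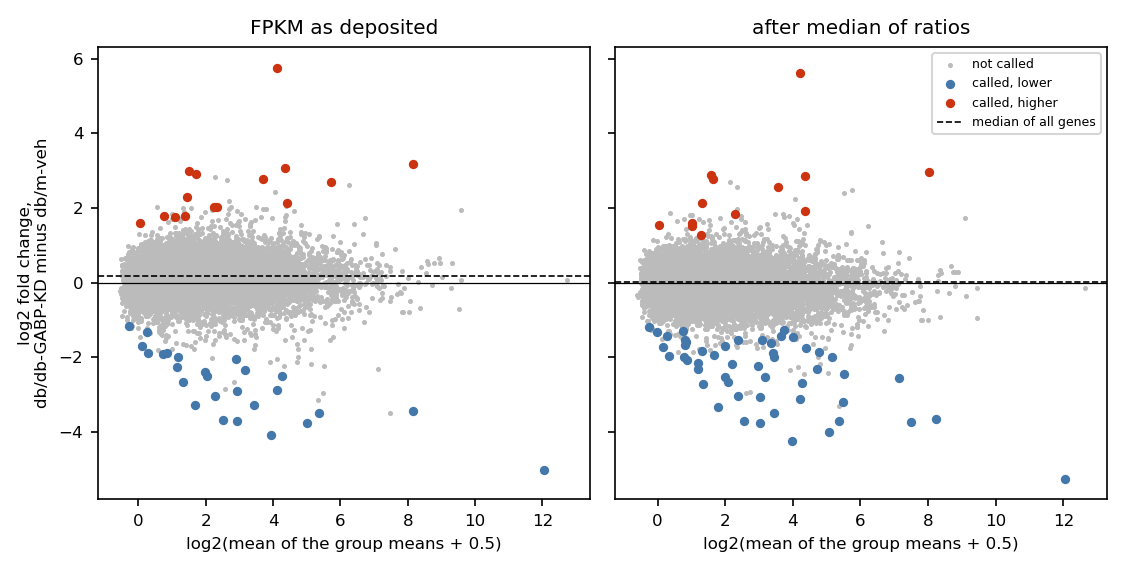
Log2 fold change, db/db-GABP-KD minus db/m-veh (y axis), against log2 of the mean of both group means plus 0.5 FPKM (x axis) for 11915 genes, as deposited (left) and after median of ratios (right); 1 point per gene. Kap is the lowest point at the far right of both panels and Ugt1a2 the highest point, and the dashed median of all genes moves from 0.18 to 0.01.

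Promoter windows of 4 genes among the largest changes show which motifs their starts carry, since GABP and steroid hormone receptors act through such sequences. Each window runs from 250 bases before to 50 bases after the annotated start (RefSeq, GRCm38.p6), 5′ to 3′ on the gene's strand, and the capitals mark the motif matches. Kap, the strongest fall, has a TATA box (TATAAA), first base at -31 from the start, on chr6:133853618-133853917 (minus strand). Ugt1a2 (chr1:88200361-88200660, plus strand) and Ugt1a10 (chr1:88055161-88055460, plus strand), both higher, have the steroid hormone receptor half-site AGAACA, read on the other strand as TGTTCT in Ugt1a10. Ugt1a10 also holds GTTAAT followed by any base and ATT, most of the binding site of the liver and kidney factor HNF1, on the other strand at -75, and Gc (chr5:89457849-89458148, minus strand) holds it at -52; this last motif was searched after the window of Gc had been read.
Kap: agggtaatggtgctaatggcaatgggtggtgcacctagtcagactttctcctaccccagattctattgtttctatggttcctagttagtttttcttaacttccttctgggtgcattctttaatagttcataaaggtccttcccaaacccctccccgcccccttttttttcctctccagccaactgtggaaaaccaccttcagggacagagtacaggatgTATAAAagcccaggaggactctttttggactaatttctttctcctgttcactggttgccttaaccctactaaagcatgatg
Ugt1a2: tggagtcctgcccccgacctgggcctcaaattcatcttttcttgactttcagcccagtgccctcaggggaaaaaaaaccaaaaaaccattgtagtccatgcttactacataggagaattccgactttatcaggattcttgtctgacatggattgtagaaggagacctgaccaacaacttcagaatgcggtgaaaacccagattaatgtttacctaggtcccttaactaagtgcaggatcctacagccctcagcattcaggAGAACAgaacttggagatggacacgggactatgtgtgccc
Ugt1a10: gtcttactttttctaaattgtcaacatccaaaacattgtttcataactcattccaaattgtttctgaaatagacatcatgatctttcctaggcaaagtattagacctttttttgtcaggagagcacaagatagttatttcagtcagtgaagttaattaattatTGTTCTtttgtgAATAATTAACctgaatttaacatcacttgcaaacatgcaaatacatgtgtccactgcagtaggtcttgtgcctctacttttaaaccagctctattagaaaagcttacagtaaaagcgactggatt
Gc: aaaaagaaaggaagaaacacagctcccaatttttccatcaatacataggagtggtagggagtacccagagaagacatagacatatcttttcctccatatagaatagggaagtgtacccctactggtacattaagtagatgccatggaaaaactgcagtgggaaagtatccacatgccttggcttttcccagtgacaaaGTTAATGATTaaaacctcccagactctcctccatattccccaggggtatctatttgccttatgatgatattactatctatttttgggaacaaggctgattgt

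Over all genes called on either scale, 10 of 17 higher and 43 of 51 lower genes had a window. The GABP core CCGGAAG, searched on both strands, occurred in 9.93% of 27025 annotated genes and in 19.9% of the 9419 tested genes with a window, but in 0 of the 10 higher and 1 of the 43 lower genes. That gene is Egf, at 1 of its annotated starts. AGAACA occurred in 21.3% of all genes and 15.0% of tested genes, in 3 of the 10 higher and in 12 of the 43 lower genes. TATAAA occurred in 15.7% of all genes and 8.72% of tested genes, in 2 of the 10 and in 11 of the 43. The letters GTTAAT, any base and ATT occurred in 0.470% of all genes and 0.361% of tested genes, in 2 of the 10, the 2 printed above, and in 0 of the 43. This motif, the HNF1 site without its last 3 bases, was chosen after the Gc window had been read. The match in Gc therefore adds nothing to that count. These are matches of letters in a short window and not binding sites, and they were not tested.

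Some androgen-responsive and steroid-metabolising genes fell, among them Kap, the largest fall of all genes tested. Of 23 tested members of that list, 5 fell as deposited and 6 after median of ratios, none rose, and the list's median log2 fold change after median of ratios was -1.14, against 0.01 for all genes. Kap (ENSMUSG00000032758, GRCm38 chromosome 6, 133849851 to 133853762, minus strand) stood at 14988, 2774 and 6747 FPKM in db/m-veh 1, 2 and 3 and at 350.1, 118 and 194 FPKM in db/db-GABP-KD 1, 2 and 3. The lowest lean library was still far above the highest of the other group. Its log2 fold change was -5.03 (SE 0.64, adjusted p = 0.00104) as deposited and -5.25 (SE 0.54, adjusted p = 0.000528) after median of ratios, and it was called on both scales in every leave-one-out fit but not without the filter on low values. Cyp7b1 (ENSMUSG00000039519, GRCm38 chromosome 3, 18071950 to 18243338, minus strand), an oxysterol and steroid 7-alpha-hydroxylase, fell from 9.04, 5.28 and 5.09 to 1.15, 0.753 and 0.328 FPKM, a log2 fold change of -2.50 (SE 0.43, adjusted p = 0.0115) as deposited. It lost that call without lean library 1 or GABP-KD library 2 or 3 (adjusted p up to 0.0948), and kept it after median of ratios. Akr1c18 (ENSMUSG00000021214, GRCm38 chromosome 13, 4132615 to 4150654, minus strand) encodes 20-alpha-hydroxysteroid dehydrogenase, which inactivates progesterone. It stood at 9.15, 4.98 and 2.13 FPKM in db/m-veh and at 0, 0 and 0.118 FPKM in db/db-GABP-KD, where 1 fragment remained against 166 (ratio 0.00633, 95% exact interval 0.000159 to 0.0358, counting error only). Its log2 fold change was -3.27 (SE 0.46, adjusted p = 0.00249) as deposited, with the call lost under voom as given above. Cyp2j13, an epoxygenase of the P450 family, fell from 12.3, 1.75 and 4.98 to 0.631, 0.596 and 0.364 FPKM (-2.40, adjusted p = 0.0343 on the log2 scale as deposited). This call was lost on at least 1 scale without lean library 1 or 3 or GABP-KD library 2 or 3 (adjusted p up to 0.191). Acsm3, a medium-chain acyl-CoA synthetase, fell from 4.70, 1.13 and 0.933 to 0.144, 0.0472 and 0.144 FPKM (-1.91, adjusted p = 0.0474). The Acsm3 call was lost on at least 1 scale without lean library 1 or GABP-KD library 1, 2 or 3 (adjusted p up to 0.182). Hsd3b4, a hydroxysteroid dehydrogenase with near-identical copies, was called after median of ratios only, at -1.66 (SE 0.32, adjusted p = 0.0338). It lost that call without lean library 1 or 3 or GABP-KD library 1, 2 or 3 (adjusted p up to 0.152).

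The 17 other tested members of that list did not pass. The cytochrome P450 gene Cyp4a12a, an androgen-responsive enzyme of arachidonic acid, stood at 117, 7.70 and 38.6 FPKM in db/m-veh and 36.1, 2.74 and 2.88 FPKM in db/db-GABP-KD, with a log2 fold change of -2.42 (adjusted p = 0.345) after median of ratios and overlapping groups. In whole kidney, fewer proximal tubule cells and less RNA per cell cannot be told apart. Of 20 proximal tubule markers, 2 fell on each scale, Kap and Slc22a7, both also members of other lists, and the median was -0.50 after median of ratios. The summed level of these markers was 3474, 7975 and 17748 FPKM in the lean libraries from lowest to highest and 1030, 1213 and 1445 FPKM in the others, most of it Kap in the lean group. Most markers of the segment did not pass. Slc34a1, the phosphate carrier of the proximal tubule, stood at 698, 187 and 390.0 against 199.7, 226 and 269.7 FPKM (-0.91, adjusted p = 0.503), and Miox at 789, 122 and 189 against 298, 239 and 256 FPKM (-0.22, adjusted p = 0.907), on the log2 scale after median of ratios. The part of cell composition in the falls was not tested.

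Cyp2a4, Akr1c14, Hsd17b2 and Cyp2d12, which are not on that list, are described because they were called. Cyp2a4 (ENSMUSG00000074254, GRCm38 chromosome 7, 26307169 to 26315088, plus strand), a steroid 15-alpha-hydroxylase, stood at 113, 34.9 and 79.5 FPKM in db/m-veh and at 8.99, 3.22 and 5.89 FPKM in db/db-GABP-KD, -3.49 (SE 0.54, adjusted p = 0.0047) on the log2 scale as deposited. It has near-identical copies and shares exon sequence with a predicted gene on the other strand, so its reads may not be its own. Akr1c14 (ENSMUSG00000033715, GRCm38 chromosome 13, 4049011 to 4090688, plus strand), a 3-alpha-hydroxysteroid dehydrogenase, fell from 15.2, 15.5 and 8.73 to 1.21, 1.01 and 1.62 FPKM, -2.91 (SE 0.41, adjusted p = 0.00249). The 3 libraries of each group lay close together for this gene and it was called in all alternatives on both scales. Hsd17b2, which oxidises estradiol and testosterone, fell from 7.79, 0.992 and 1.34 to 0.0615, 0.0606 and 0.148 FPKM (-2.27, adjusted p = 0.0474). The Hsd17b2 call was lost on at least 1 scale without lean library 1 or 3 or GABP-KD library 1, 2 or 3 (adjusted p up to 0.164). Cyp2d12, 1 of the 2 called members among 21 P450 genes of families 1 to 4, fell from 20.1, 8.96 and 14.7 to 2.11, 2.31 and 2.53 FPKM (-2.36, adjusted p = 0.0102); the other was Cyp2a4, and the list's median was -0.40 after median of ratios. Cyp2d12 lost its call as deposited without lean library 1 or 3 or GABP-KD library 2 (adjusted p up to 0.084), and kept it after median of ratios.

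**Figure D3:**
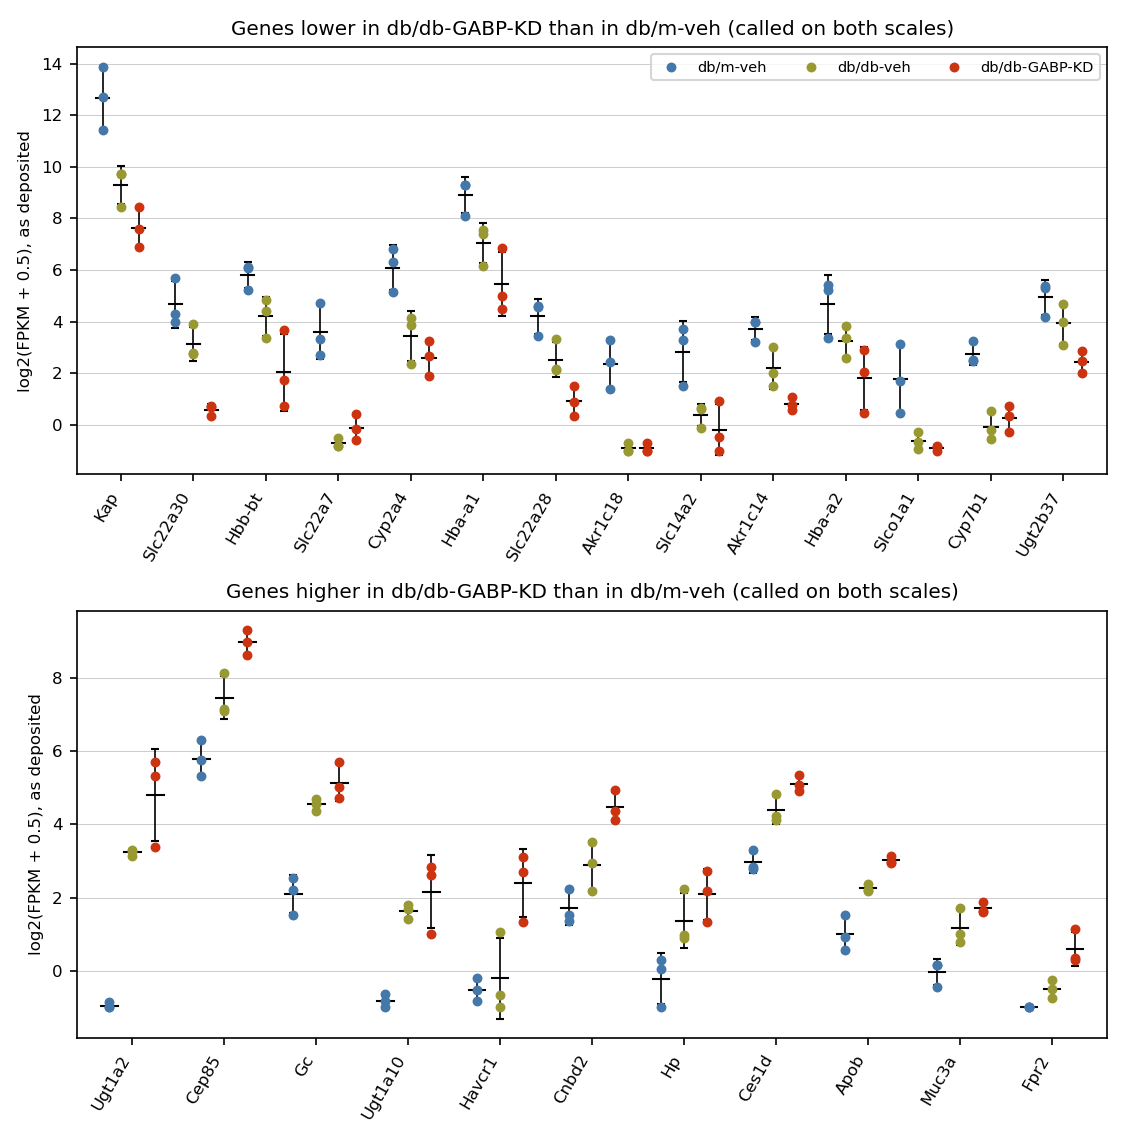
Level of the 14 named genes that fell (top) and the 11 that rose (bottom) in db/m-veh, db/db-veh and db/db-GABP-KD, as log2(FPKM + 0.5) as deposited (y axis), 1 point per library; horizontal ticks and bars are the mean and SD of 3 libraries. The db/db-GABP-KD points lie below all db/m-veh points in the top panel and above them in the bottom panel, and the mean of db/db-veh lies between the other means for all of these genes but Slc22a7, Akr1c18 and Cyp7b1.

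Organic anion carriers had about as many calls. Of 22 tested members of the SLC22 and SLCO families, 5 fell as deposited and 6 after median of ratios, none rose, and the median was -0.80 after median of ratios. Slc22a30 (ENSMUSG00000052562, GRCm38 chromosome 19, 8335371 to 8405111, minus strand), a member of the mouse organic anion transporter cluster on chromosome 19, stood at 51.2, 15.6 and 19.3 FPKM in db/m-veh and at 1.16, 0.761 and 1.10 FPKM in db/db-GABP-KD. All 3 libraries labelled GABP-KD were near 1 FPKM, and the log2 fold change was -4.09 (SE 0.45, adjusted p = 0.000388) as deposited and -4.25 (SE 0.39, adjusted p = 0.000358) after median of ratios. Slc22a28 (ENSMUSG00000063590, GRCm38 chromosome 19, 8062209 to 8131982, minus strand), from the same cluster, fell from 23.2, 10.3 and 24.1 to 2.36, 1.34 and 0.781 FPKM, -3.29 (SE 0.48, adjusted p = 0.00287) as deposited. Slc22a26, the third called gene there, was low throughout, at 1.26, 1.14 and 1.09 against 0, 0 and 0.0482 FPKM (-1.69, adjusted p = 0.0102; 87 against 1 fragments). Slc22a26 lost its call on at least 1 scale without lean library 1 or GABP-KD library 2 (adjusted p up to 0.0721). Not every gene of the cluster passed. Slc22a29 stood at 0.722, 2.39 and 1.98 against 1.88, 2.10 and 1.94 FPKM (0.10, adjusted p = 0.942 after median of ratios), and Slc22a19 at 3.42, 2.46 and 1.72 against 0.196, 0.0858 and 1.07 FPKM (-1.86, adjusted p = 0.0507). These genes are close copies of each other, so reads may have been assigned between them. Slc22a7 (ENSMUSG00000067144, GRCm38 chromosome 17, 46432183 to 46438457, minus strand) encodes OAT2, a carrier of organic anions and nucleotides. It fell from 26.2, 9.57 and 6.12 to 0.169, 0.832 and 0.406 FPKM, -3.70 (SE 0.45, adjusted p = 0.000898) as deposited.

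Slco1a1 (ENSMUSG00000041698, GRCm38 chromosome 6, 141907282 to 141946962, minus strand), a bile salt and steroid conjugate carrier of the apical membrane, fell from 8.27, 0.890 and 2.76 to 0.0673, 0 and 0.0539 FPKM, -2.66 (SE 0.48, adjusted p = 0.017) as deposited. It held 567 fragments over the lean libraries and 5 over the others. Its call was lost on at least 1 scale without lean library 1 or 3 or GABP-KD library 2 or 3 (adjusted p up to 0.0914). Slc22a22, a prostaglandin carrier, was called after median of ratios only, at 13.3, 3.79 and 3.82 against 1.16, 0.621 and 1.57 FPKM (-2.18, adjusted p = 0.0475). That call was lost without lean library 1 or 2 or GABP-KD library 1, 2 or 3 (adjusted p up to 0.177). The main basolateral anion uptake carriers did not pass: Slc22a6 (OAT1) stood at 144, 24.8 and 82.0 against 41.6, 34.7 and 32.1 FPKM (-1.10, adjusted p = 0.415) and Slc22a8 (OAT3) at 146, 40.0 and 65.5 against 55.7, 56.3 and 46.4 FPKM (-0.69, adjusted p = 0.727), and both overlapped between groups. Slc14a2, the urea transporter of the inner medulla, fell from 2.35, 12.6 and 9.40 to 0, 0.225 and 1.38 FPKM, -3.03 (SE 0.59, adjusted p = 0.0309) as deposited. This gene belongs to the deep medulla and not to the cortex, and its call was lost on at least 1 scale without lean library 2 or 3 or GABP-KD library 1 or 2 (adjusted p up to 0.158). Principal cell markers of the collecting duct, which runs through both cortex and medulla, had 0 of 11 members called and a median of -0.75 after median of ratios. The sources used here do not give the share of cortex and medulla in each pool, and its part in these values was not tested.

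UDP-glucuronosyltransferases, which attach glucuronic acid to steroids, bilirubin and drugs, moved in both directions. Of 11 tested, 3 rose and 1 fell as deposited, and 2 rose and 3 fell after median of ratios. All that rose were of the Ugt1a locus on chromosome 1, and none that fell were. Ugt1a2 (ENSMUSG00000090171, GRCm38 chromosome 1, 88200601 to 88218997, plus strand) stood at 0, 0 and 0.0484 FPKM in db/m-veh and at 9.85, 39.9 and 51.6 FPKM in db/db-GABP-KD. It was all but absent from lean kidney, with 1 fragment over the 3 libraries against 1744 (ratio 1834, 95% exact interval 329 to 72481, counting error only). Its log2 fold change was 5.76 (SE 0.45, adjusted p = 3.28e-06) as deposited and 5.62 (SE 0.59, adjusted p = 0.000528) after median of ratios. Ugt1a2 is a member only through the libraries labelled GABP-KD, so its direction followed from the filter. Ugt1a10 (ENSMUSG00000090165, GRCm38 chromosome 1, 88055388 to 88219004, plus strand) stood at 0, 0.0647 and 0.142 FPKM against 1.51, 5.60 and 6.71 FPKM, 2.98 (SE 0.37, adjusted p = 0.000975) as deposited. Ugt1a7c stood at 0.622, 2.47 and 1.29 against 4.49, 8.15 and 8.76 FPKM and passed as deposited only, 2.02 (SE 0.38, adjusted p = 0.0222), against 1.83 (adjusted p = 0.114) after median of ratios. Ugt1a7c lost its call without lean library 1 or 3 or GABP-KD library 2 or 3 (adjusted p up to 0.183). The Ugt1a genes use separate first exons and share the rest, so fragments of the shared exons cannot be assigned to 1 gene, and Ugt1a6a did not pass (0.609, 0.136 and 0.745 against 0.439, 0.351 and 0.165 FPKM, -0.32, adjusted p = 0.715 after median of ratios). Ugt1a10 lost its call after median of ratios without lean library 1, 2 or 3 or GABP-KD library 2 or 3 (adjusted p up to 0.0925) and kept it as deposited.

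Ugt2b37 (ENSMUSG00000057425, GRCm38 chromosome 5, 87240493 to 87254804, minus strand), of the family that handles steroids, fell from 38.7, 17.4 and 41.3 to 5.06, 6.83 and 3.53 FPKM, -2.49 (SE 0.47, adjusted p = 0.0222) as deposited. Its neighbour and near copy Ugt2b38 was called after median of ratios only, at 96.5, 25.1 and 109 against 12.3, 19.1 and 10.2 FPKM (-2.44, adjusted p = 0.0284). Ugt2b38 lost that call without lean library 1 or 3 or GABP-KD library 1 or 3 (adjusted p up to 0.144). Ugt8a, which transfers galactose to ceramide rather than glucuronic acid, was likewise called on that scale only, at -1.95 (adjusted p = 0.0257). Ugt8a lost its call without lean library 1 or 3 or GABP-KD library 1 or 2 (adjusted p up to 0.122). Ugt2b37 lost its call as deposited without lean library 1 or 3 or GABP-KD library 2 or 3 (adjusted p up to 0.149), and kept it after median of ratios.

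Cep85 and Cnbd2 were the next rises called in every leave-one-out fit. Cep85 (ENSMUSG00000037443, GRCm38 chromosome 4, 134129858 to 134187112, minus strand), a centrosomal protein gene, stood at 39.3, 78.8 and 53.9 FPKM in db/m-veh and at 633, 395 and 511 FPKM in db/db-GABP-KD. The lowest library labelled GABP-KD lay several-fold above the highest lean one. The log2 fold change was 3.18 (SE 0.46, adjusted p = 0.00256) as deposited and 2.96 (SE 0.39, adjusted p = 0.00272) after median of ratios, called in every alternative. Cnbd2 (ENSMUSG00000038085, GRCm38 chromosome 2, 156312299 to 156375638, plus strand), a cyclic nucleotide-binding domain protein gene known from testis, rose from 2.40, 2.08 and 4.22 to 30.1, 17.1 and 19.98 FPKM, 2.76 (SE 0.41, adjusted p = 0.00287) as deposited. Exons of Cnbd2 overlap Scand1 on the other strand, so its reads may belong to that gene.

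Gc, Apob, Hp and Ces1d rose as well. Gc (ENSMUSG00000035540, chromosome 5), the vitamin D-binding protein, stood at 2.37, 4.14 and 5.28 FPKM in db/m-veh and at 25.7, 31.8 and 51.9 FPKM in db/db-GABP-KD, 3.06 (SE 0.41, adjusted p = 0.00134) as deposited and 2.85 (SE 0.43, adjusted p = 0.00819) after median of ratios. It was the only called gene among 16 of the phosphate, Klotho and vitamin D list, whose median was -0.01 after median of ratios. Gc lost its call after median of ratios without GABP-KD library 2 (adjusted p up to 0.0536). Apob (ENSMUSG00000020609, GRCm38 chromosome 12, 7977648 to 8016835, plus strand), the structural protein of lipoproteins, rose from 1.40, 0.969 and 2.37 to 7.33, 7.24 and 8.31 FPKM, 2.02 (SE 0.32, adjusted p = 0.00592) as deposited. After median of ratios Apob lost its call without lean library 1 or 2 or GABP-KD library 2 or 3 (adjusted p up to 0.101). Hp (ENSMUSG00000031722, GRCm38 chromosome 8, 109575128 to 109579172, minus strand), haptoglobin, which binds free hemoglobin and rises in the acute phase, rose from 0, 0.731 and 0.533 to 6.12, 4.06 and 2.04 FPKM, 2.30 (SE 0.45, adjusted p = 0.0309). The Hp call was lost on at least 1 scale without lean library 1 or 3 or GABP-KD library 1 or 2 (adjusted p up to 0.263). Ces1d (ENSMUSG00000056973, GRCm38 chromosome 8, 93166068 to 93197838, minus strand), a carboxylesterase of lipid and drug metabolism, rose from 9.32, 6.38 and 6.60 to 33.1, 29.7 and 40.4 FPKM, 2.14 (SE 0.37, adjusted p = 0.0102). Ces1d lost its call on at least 1 scale without lean library 3 or GABP-KD library 2 or 3 (adjusted p up to 0.0901). Of the 14 adrenal, muscle and liver genes listed as a check, 6 were tested and 0 were called, and their summed level was 18.4 to 50.2 FPKM in the lean libraries and 18.7 to 30.6 FPKM in the others. Transthyretin (Ttr), a carrier of thyroid hormone and retinol made in liver, stood at 28.8, 1.73 and 1.63 against 0.200, 0.196 and 0.240 FPKM (-2.95, adjusted p = 0.144 after median of ratios, not past the threshold).

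Havcr1 (ENSMUSG00000040405, GRCm38 chromosome 11, 46735080 to 46779578, plus strand) encodes KIM-1, the standard marker of injured proximal tubule. It stood at 0.189, 0.0635 and 0.371 FPKM in db/m-veh and at 6.04, 8.17 and 2.03 FPKM in db/db-GABP-KD, with no overlap. The log2 fold change was 2.91 (SE 0.51, adjusted p = 0.0115) as deposited and 2.77 (SE 0.55, adjusted p = 0.0396) after median of ratios. The Havcr1 call was lost on at least 1 scale without lean library 1, 2 or 3 or GABP-KD library 1 or 2 (adjusted p up to 0.155). Among 17 tested injury markers it was the only one called, and the list's median was 1.16 after median of ratios, against 0.01 for all genes. Other members had their highest value in db/db-GABP-KD 1. Spp1, osteopontin, stood at 76.5, 183 and 353 against 3377, 413 and 202 FPKM (1.72, adjusted p = 0.5), Krt20 at 0, 0.0762 and 0.222 against 13.3, 0.605 and 0.369 FPKM (1.80, adjusted p = 0.372), and Lcn2, the marker NGAL, at 1.13, 2.85 and 4.74 against 37.8, 8.04 and 1.73 FPKM (1.34, adjusted p = 0.678). In db/db-GABP-KD 2 and 3 Spp1 lay within or close to the lean range. Ccl2, a monocyte chemokine, was the reverse, with db/db-GABP-KD 1 within the lean range (0, 0.387 and 0.282 against 0.208, 5.22 and 2.00 FPKM, 1.62, adjusted p = 0.341).

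Inflammatory chemokines and neutrophil genes had 0 of 15 members called and a median of 0.85 after median of ratios. S100a9 stood at 0, 0.843 and 3.28 against 17.9, 6.70 and 5.18 FPKM (2.55, adjusted p = 0.115), and Cxcl1, a neutrophil chemokine, at 0.583, 0 and 0.628 against 11.3, 12.9 and 0.910 FPKM (2.69, adjusted p = 0.25). Complement C3 stood at 1.93, 4.05 and 8.20 against 20.1, 47.7 and 14.9 FPKM (2.23, adjusted p = 0.158), with no overlap, and Socs3, which is induced by cytokines and leptin, at 0.756, 1.47 and 1.85 against 23.4, 4.59 and 3.98 FPKM (1.97, adjusted p = 0.0893). Those 4 genes lay higher in all 3 libraries labelled GABP-KD without passing the test. Fpr2 (ENSMUSG00000052270, GRCm38 chromosome 17, 17887824 to 17893952, plus strand), a formyl peptide receptor of myeloid cells, was called on both scales, at 0, 0 and 0 against 0.731, 1.71 and 0.768 FPKM, 1.59 (SE 0.25, adjusted p = 0.00565) as deposited. With 0 fragments over the lean libraries and 34 over the others, it was at least 11.9-fold higher, with the lean group set to a floor of 3 fragments in total. Fpr2 is a member only through the libraries labelled GABP-KD, so its direction followed from the filter. Its exons overlap Fpr3 on the same strand, and the call after median of ratios was lost without lean library 1, 2 or 3 or GABP-KD library 2 or 3 (adjusted p up to 0.117). Summed macrophage and myeloid markers ran from 34.0 to 49.3 FPKM in the lean libraries and from 32.1 to 107.6 FPKM in the others, with Retnla at 0 in all 6 libraries and 0 of 15 tested members called; their part in the Fpr2 result was not tested. Muc3a (ENSMUSG00000094840, GRCm38 chromosome 5, 137208813 to 137212389, minus strand), a membrane mucin, rose from 0.232, 0.622 and 0.624 to 3.20, 2.59 and 2.56 FPKM, 1.75 (SE 0.36, adjusted p = 0.0464) as deposited. Muc3a lost its call on at least 1 scale without any 1 of the 6 libraries (adjusted p up to 0.311).

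As deposited only, 3 further genes rose beside Ugt1a7c. Clca3a1, a secreted regulator of chloride channels, stood at 8.19, 17.0 and 14.5 against 50.9, 109 and 111 FPKM (2.71, adjusted p = 0.00967). Col12a1, a fibril-associated collagen, stood at 0.517, 0.848 and 0.626 against 2.99, 3.52 and 4.07 FPKM (1.79, adjusted p = 0.00898), and Cpz, a carboxypeptidase that acts on Wnt proteins, at 0.438, 0.0654 and 0.238 against 1.21, 2.13 and 3.10 FPKM (1.79, adjusted p = 0.0102). After median of ratios their values were 2.48 (adjusted p = 0.0757), 1.63 (adjusted p = 0.0579) and 1.70 (adjusted p = 0.062) on the log2 scale, higher but short of the threshold. As deposited Clca3a1 lost its call without lean library 1 or GABP-KD library 2 or 3 (adjusted p up to 0.0749), Col12a1 without lean library 1 or 3 (adjusted p up to 0.0721) and Cpz without lean library 2 or 3 or GABP-KD library 2 or 3 (adjusted p up to 0.0633). Extracellular matrix genes had 0 of 30 members called and a median of 0.32 after median of ratios. After median of ratios only, Gab2, a signalling adaptor, and Ppl, the desmosomal protein periplakin, were called higher, 1.27 (adjusted p = 0.0462) and 1.52 (adjusted p = 0.0438). Gab2 lost its call without lean library 1, 2 or 3 or GABP-KD library 2 or 3 (adjusted p up to 0.197). Ppl rested largely on db/db-GABP-KD 1 (0.492, 0.596 and 0.280 against 7.42, 1.59 and 1.36 FPKM), and lost its call without lean library 1, 2 or 3 or GABP-KD library 1 or 2 (adjusted p up to 0.174).

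The thick ascending limb reabsorbs salt through the Na-K-2Cl carrier NKCC2, encoded by Slc12a1, and makes epidermal growth factor. After median of ratios 2 of its 13 tested markers fell, against 0 as deposited, and the list's median was -1.07 (-0.90 as deposited), with 12 of 13 members below the median of all genes. Slc12a1 stood at 51.6, 61.3 and 46.9 FPKM in db/m-veh and at 19.0, 9.83 and 17.9 FPKM in db/db-GABP-KD, with no overlap, -1.79 (SE 0.46, adjusted p = 0.164) as deposited and -2.01 (SE 0.33, adjusted p = 0.017) after median of ratios. The library with the most nuclear fragments, db/db-GABP-KD 1, was as low as the others once scaled. Egf stood at 15.4, 11.4 and 15.7 against 5.76, 3.81 and 5.60 FPKM, -1.61 (SE 0.28, adjusted p = 0.017) after median of ratios. Slc12a1 lost its call without lean library 2 or GABP-KD library 2 (adjusted p up to 0.0914), and Egf without lean library 1 or 3 or GABP-KD library 2 (adjusted p up to 0.0914). Umod, uromodulin, the most specific product of the segment, did not pass (12.4, 24.8 and 17.5 against 8.70, 4.72 and 12.9 FPKM, -1.28, adjusted p = 0.311), nor did the claudin gene Cldn10 (6.88, 9.23 and 13.4 against 1.10, 3.78 and 5.82 FPKM, -1.64, adjusted p = 0.259). Fewer thick ascending limb cells in the pools and less RNA per cell cannot be told apart here either.

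Most of the red blood cell genes tested fell. Of 7 tested, 4 fell as deposited and 5 after median of ratios, and the median was -3.11 after median of ratios. Hba-a1 (ENSMUSG00000069919, GRCm38 chromosome 11, 32283511 to 32284465, plus strand), alpha globin, stood at 631, 630.2 and 272 FPKM in db/m-veh and at 117, 22.2 and 31.4 FPKM in db/db-GABP-KD, -3.44 (SE 0.61, adjusted p = 0.0142) as deposited. Its copy Hba-a2 (ENSMUSG00000069917, GRCm38 chromosome 11, 32296489 to 32297298, plus strand) fell from 37.4, 42.5 and 9.79 to 6.92, 0.873 and 3.62 FPKM, -2.88 (SE 0.60, adjusted p = 0.0474), and the beta globin Hbb-bt (ENSMUSG00000073940, GRCm38 chromosome 7, 103812524 to 103813996, minus strand) from 66.7, 69.7 and 37.0 to 12.1, 1.16 and 2.83 FPKM, -3.77 (SE 0.71, adjusted p = 0.0222). The globin copies are near identical, so the split between them is uncertain. Alas2, the erythroid enzyme that starts heme synthesis, fell from 1.37, 3.18 and 2.41 to 0.690, 0.145 and 0 FPKM (-1.90, adjusted p = 0.0474). The beta globin Hbb-bs was called after median of ratios only, -3.72 (SE 0.75, adjusted p = 0.0438). On at least 1 scale, Hba-a2 lost its call without lean library 1 or 2 or GABP-KD library 2 or 3 (adjusted p up to 0.308), Hbb-bt without lean library 1, 2 or 3 or GABP-KD library 2 or 3 (adjusted p up to 0.143), Alas2 without lean library 1, 2 or 3 or GABP-KD library 2 or 3 (adjusted p up to 0.181) and Hbb-bs without lean library 1, 2 or 3 or GABP-KD library 2 or 3 (adjusted p up to 0.179). Hba-a1 lost its call as deposited without lean library 1 or 2 or GABP-KD library 2 or 3 (adjusted p up to 0.108), and kept it after median of ratios. Summed over the list, the lean libraries held 585, 939 and 1190.0 FPKM and the others 33.7, 52.8 and 267.0 FPKM. The amount of blood left in each kidney is unknown here. Endothelial markers, from the vessels that hold the blood, had 0 of 20 members called and a median of -0.39 after median of ratios.

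**Figure D4:**
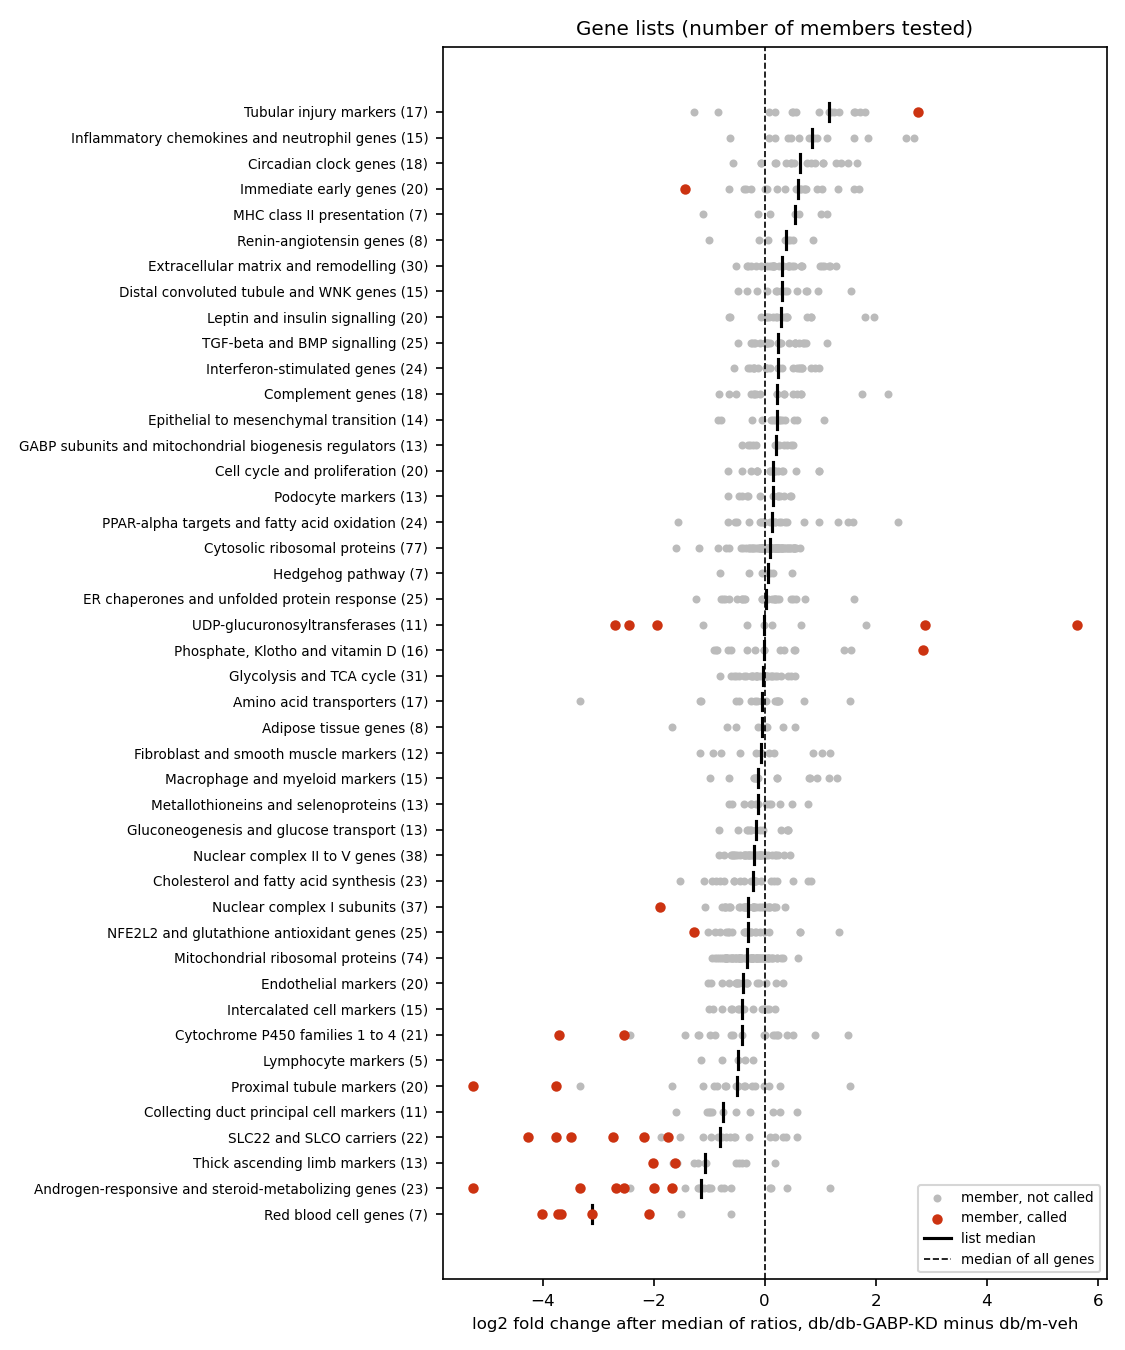
Log2 fold change after median of ratios, as db/db-GABP-KD minus db/m-veh (x axis), of the members of 44 gene lists (y axis; number of members tested in brackets), 1 point per gene, red where called; black ticks are list medians and the dashed line is the median of all 11915 genes. Red blood cell, androgen-responsive and thick ascending limb genes lie at the low end (medians -3.11, -1.14 and -1.07), and injury and chemokine genes at the high end (1.16 and 0.85).

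Nuclear genes for mitochondrial proteins, among which GABP targets are known, gave 1 call. Of 37 complex I subunits, 0 passed as deposited and 1 fell after median of ratios, Ndufs5 (20.1, 8.53 and 19.0 against 8.54, 4.88 and 1.82 FPKM, -1.89, SE 0.36, adjusted p = 0.0338), whose call was lost without lean library 1 or 3 or GABP-KD library 2 or 3 (adjusted p up to 0.167). None of 38 genes of complexes II to V and none of 74 mitochondrial ribosomal protein genes passed. The medians of these 3 lists were -0.30, -0.19 and -0.31 after median of ratios and -0.08, 0.03 and -0.11 as deposited, so their direction against 0 depended on the scale for complexes II to V. All 3 medians lay below that of all genes on both scales (0.01 and 0.18). After median of ratios 28 of 37, 31 of 38 and 62 of 74 members lay below the median of all genes. The groups did not overlap, lower, for 8, 4 and 20 members on that scale, against 8.35% of all genes. As deposited these were 1, 0 and 2 members, against 3.82%. Whether these lists differ from other genes was not tested. The list of GABP subunits and regulators of mitochondrial biogenesis had 0 of 13 called and a median of 0.21. Among 25 glutathione and NFE2L2 genes, Gclm, the modifier subunit of the rate-limiting enzyme of glutathione synthesis, fell after median of ratios (16.8, 16.5 and 19.0 against 13.9, 6.26 and 6.17 FPKM, -1.27, SE 0.22, adjusted p = 0.0177) and lost its call without lean library 2 or 3 or GABP-KD library 2 or 3 (adjusted p up to 0.101). Its catalytic partner Gclc did not pass (42.9, 19.1 and 28.0 against 57.2, 12.9 and 12.8 FPKM, -0.63, adjusted p = 0.572).

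Glucose handling showed no called gene. Of 13 genes for gluconeogenesis and glucose transport 0 passed on either scale. Slc5a2, the glucose carrier SGLT2, stood at 39.2, 8.41 and 38.5 against 22.5, 16.9 and 19.1 FPKM (-0.49, 95% interval -1.52 to 0.55 on the log2 scale after median of ratios), and Pck1, which commits to gluconeogenesis, at 513, 240.1 and 573 against 1194, 296 and 269 FPKM (-0.08, 95% interval -1.74 to 1.58). Both intervals hold levels below and above that of lean kidney. PPAR-alpha and fatty acid oxidation genes likewise had 0 of 24 called, and Pdk4, which spares glucose from oxidation, stood far above the rest in db/db-GABP-KD 1 alone, at 1.81, 1.25 and 3.05 FPKM in db/m-veh against 445, 2.42 and 2.07 FPKM in db/db-GABP-KD (2.40, adjusted p = 0.526). Circadian clock genes had 0 of 18 called and a median of 0.65. Per1, a core repressor of the clock, was likewise high in db/db-GABP-KD 1 alone (7.05, 2.97 and 4.202 against 89.4, 3.06 and 3.54 FPKM, 0.90, adjusted p = 0.697). Among 20 immediate early genes 1 was called after median of ratios, Klf2, which fell (-1.44, SE 0.29, adjusted p = 0.0464), while the list's median was 0.61, and that call was lost without any 1 of the 6 libraries (adjusted p up to 0.176). Cyp24a1, which degrades active vitamin D, lay higher in all 3 libraries labelled GABP-KD (4.21, 3.63 and 5.56 against 15.4, 14.01 and 14.7 FPKM) without passing (1.42, adjusted p = 0.0658).

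The diabetic vehicle group places these values. Between the vehicle groups, db/db-veh minus db/m-veh, 10 of 12884 genes passed as deposited (0.0776%; 0.031% higher and 0.0466% lower in db/db-veh) and 22 after median of ratios (0.171%; 0.0543% higher and 0.116% lower), 22 genes in all. Both contrasts share the 3 db/m-veh libraries, so their values are not independent, and each contrast's own values are given side by side. They are after median of ratios unless stated, and 12 of the 22 genes did not pass under vehicle as deposited. Slc22a7 stood at 26.2, 9.57 and 6.12 FPKM in db/m-veh, 0.211, 0.0618 and 0.0620 FPKM in db/db-veh and 0.169, 0.832 and 0.406 FPKM in db/db-GABP-KD. The log2 fold change after median of ratios was -4.32 (adjusted p = 0.00215) under vehicle and -3.77 (adjusted p = 0.00144) under the knockdown label. Akr1c18 was -3.33 (adjusted p = 0.0136) and -3.33 (adjusted p = 0.00499) in the same order, Cyp7b1 -2.72 (adjusted p = 0.013) and -2.67 (adjusted p = 0.00499), and Gc 2.84 (adjusted p = 0.0193) and 2.85 (adjusted p = 0.00819). Those 4 genes lay far from lean kidney in both db/db groups. Between the db/db groups Slc22a7 differed by 0.55 (adjusted p = 0.898) and Cyp7b1 by 0.05 (adjusted p = 0.995), with smaller differences for Akr1c18 and Gc.

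Kap stood at 850.5, 348 and 836 FPKM in db/db-veh, between lean kidney and the libraries labelled GABP-KD, and after median of ratios it passed against lean under vehicle (adjusted p = 0.0434) and, at -5.25 (adjusted p = 0.000528), under the knockdown label. As deposited it did not pass under vehicle, at -3.38 (adjusted p = 0.06). The difference between the db/db groups did not pass, -2.26 (adjusted p = 0.264). Cyp2a4 (4.63 to 17.3 FPKM in db/db-veh) was -2.28 (adjusted p = 0.0369) and -3.71 (adjusted p = 0.000528). As deposited, the vehicle difference of Cyp2a4 was -2.64 (adjusted p = 0.0919). Ugt1a2 stood at 8.34, 9.33 and 9.24 FPKM in db/db-veh, with a difference from lean of 4.64 (adjusted p = 0.00633) and 5.62 (adjusted p = 0.000528). Between the db/db groups Ugt1a2 was 0.99 (adjusted p = 0.844), but without db/db-GABP-KD 1 it passed, with adjusted p = 0.0039 as deposited and 0.022 after median of ratios. Cnbd2 (7.18, 4.05 and 11.0 FPKM in db/db-veh) was 1.54 (adjusted p = 0.0434) and 2.55 (adjusted p = 0.00063), Ces1d (28.3, 18.2 and 16.9) 1.81 (adjusted p = 0.0428) and 1.93 (adjusted p = 0.017), and Ugt1a10 (2.73, 2.98 and 2.18) 2.85 (adjusted p = 0.0369) and 2.89 (adjusted p = 0.017). As deposited under vehicle Cnbd2 was 1.17 (adjusted p = 0.278) and Ces1d 1.43 (adjusted p = 0.216), neither past the threshold, while Ugt1a10 passed at 2.46 (adjusted p = 0.0113). Ndufs5 and Hsd3b4 were called after median of ratios in both contrasts, at -2.32 (adjusted p = 0.0249) and -1.85 (adjusted p = 0.0369) under vehicle, and Slc22a26 and Smlr1 at -1.56 (adjusted p = 0.0369) and -1.23 (adjusted p = 0.0369). As deposited these 4 missed the threshold under vehicle, at -2.62 (adjusted p = 0.0578), -1.89 (adjusted p = 0.0528), -1.53 (adjusted p = 0.06) and -1.31 (adjusted p = 0.0663). Smlr1, a small membrane protein gene, stood at 1.47, 0.939 and 1.25 against 0.297, 0.0266 and 0.260 FPKM in lean and knockdown-labelled libraries (-1.43, adjusted p = 0.00735). Smlr1 lost its call on at least 1 scale without lean library 1 or 3 or GABP-KD library 2 or 3 (adjusted p up to 0.181).

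**Figure D5:**
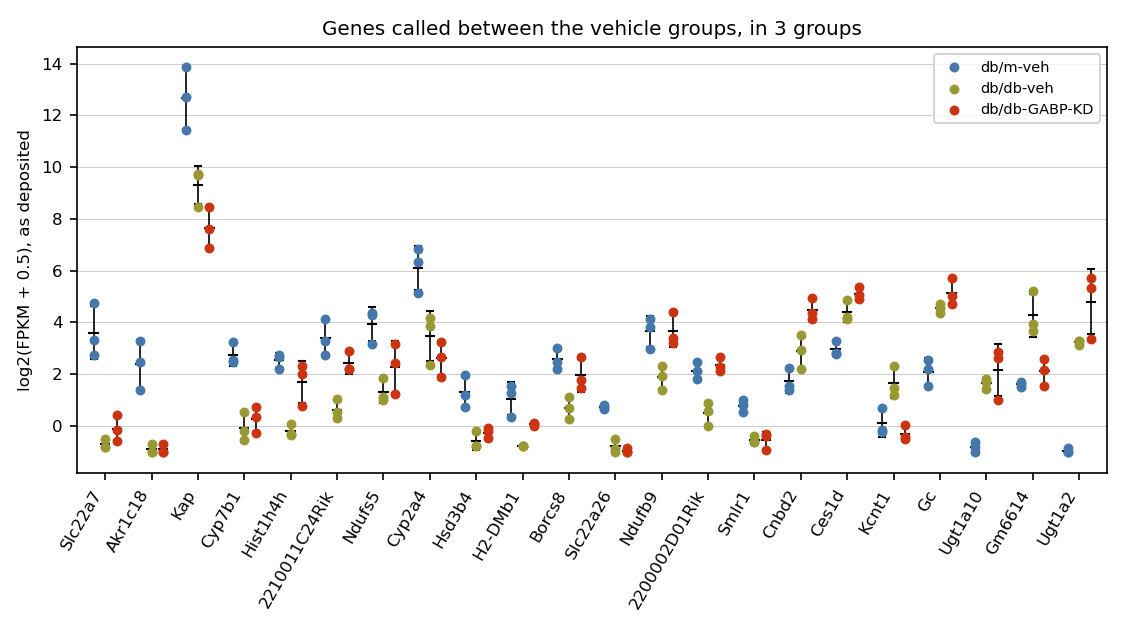
Level of the 22 genes called between the vehicle groups, as log2(FPKM + 0.5) as deposited (y axis), in db/m-veh, db/db-veh and db/db-GABP-KD, 1 point per library, ordered from the largest fall to the largest rise under vehicle; horizontal ticks and bars are the mean and SD of 3 libraries. The db/db-GABP-KD points lie with db/db-veh for genes such as Slc22a7 and Gc, and with db/m-veh for Ndufb9, Kcnt1 and Gm6614.

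Other genes called between the vehicle groups did not pass between db/db-GABP-KD and db/m-veh. Gm6614 (ENSMUSG00000079263, GRCm38 chromosome 6, 141971845 to 142011414, minus strand), a predicted gene, stood at 2.72, 2.58 and 2.32 FPKM in db/m-veh, 36.7, 14.6 and 12.3 FPKM in db/db-veh and 5.51, 3.99 and 2.44 FPKM in db/db-GABP-KD. It was 3.05 (adjusted p = 0.00233) under vehicle, 0.30 (95% interval -0.43 to 1.03) under the knockdown label, and -2.75 (adjusted p = 0.00991) between the db/db groups. Kcnt1, a sodium-activated potassium channel, stood at 1.13, 0.340 and 0.395, 4.49, 2.28 and 1.80 and 0.249, 0.196 and 0.524 FPKM in the same order of groups. It was 1.92 (adjusted p = 0.0369), -0.46 (95% interval -1.17 to 0.25) and -2.38 (adjusted p = 0.0191). As deposited, the vehicle difference of Kcnt1 was 1.57 (adjusted p = 0.126). For these 2 genes the difference between the db/db groups itself passed after median of ratios, also without db/db-GABP-KD 1 (adjusted p = 0.022 and 0.041), but not as deposited. That contrast called 0 of 12884 genes as deposited (limma; 1842 at unadjusted p under 0.05) and 5 after median of ratios (0.0388%), all lower. Slc22a30, Slc12a1 and the metallophosphoesterase gene Mpped1 were the others. Slc22a30 stood at 14.4, 6.32 and 6.22 FPKM in db/db-veh, below lean and above the libraries labelled GABP-KD (-3.08, adjusted p = 0.00991 between the db/db groups). Slc12a1, at 89.2, 27.6 and 48.8 FPKM in db/db-veh, differed from lean under the knockdown label (-2.01, adjusted p = 0.017) and was 0.28 (adjusted p = 0.789) under vehicle.

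A further 6 genes were lower in db/db-veh than in lean kidney. Ndufb9, a complex I subunit, stood at 13.7, 7.40 and 17.1, 4.43, 2.14 and 3.28 and 20.8, 8.81 and 10.1 FPKM in db/m-veh, db/db-veh and db/db-GABP-KD, -1.45 (adjusted p = 0.0369) under vehicle and -0.19 (95% interval -0.73 to 0.36) under the knockdown label. 2200002D01Rik stood at 5.03, 3.00 and 3.83, 1.32, 0.498 and 0.999 and 5.90, 3.87 and 4.36 FPKM, -1.43 (adjusted p = 0.0369) and 0.03 (95% interval -0.49 to 0.55). Between the db/db groups Ndufb9 was 1.26 (adjusted p = 0.177) and 2200002D01Rik 1.46 (adjusted p = 0.0631), neither past the threshold with all libraries, and the latter passed without db/db-GABP-KD 1 (adjusted p = 0.0395 after median of ratios). Borcs8, a subunit of a lysosome-positioning complex, was -1.62 (adjusted p = 0.03) under vehicle and -0.81 (95% interval -1.37 to -0.25) under the knockdown label. The antigen-presentation gene H2-DMb1 was -1.82 (adjusted p = 0.0369) and -1.11 (95% interval -1.79 to -0.42), the histone gene Hist1h4h -2.58 (adjusted p = 0.0193) and -1.02 (95% interval -1.86 to -0.19), and 2210011C24Rik -2.51 (adjusted p = 0.00633) and -1.17 (95% interval -1.87 to -0.47). H2-DMb1 does not stand for its list: under the knockdown label 7 MHC class II genes were tested, 0 were called and the median was 0.54 after median of ratios. Its close copy H2-DMb2 was 0.62 (limma adjusted p = 0.579), and reads may have been assigned between these copies. As deposited under vehicle Ndufb9 (-1.78, adjusted p = 0.178), 2200002D01Rik (-1.65, adjusted p = 0.0919) and Borcs8 (-1.87, adjusted p = 0.0919) did not pass. A p that misses the threshold under the knockdown label does not show that a gene was at the lean level. For Hist1h4h, 2210011C24Rik, H2-DMb1 and Borcs8 the 95% interval lay below 0, while the adjusted p over all genes was 0.358, 0.183, 0.207 and 0.267.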

How the data were processed

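Kidney poly(A) RNA was sequenced as paired ends on an Illumina instrument, per the labels' protocols. The authors deposited 1 table of FPKM values per gene for 12 libraries; HTSeq and GRCm39 are named, without versions, in the submitters' processing notes, and the sources used here do not give the aligner, annotation or strand setting. Whole fragments were recovered from the FPKM with GENCODE M21 exon lengths (GRCm38), with 97.98% to 98.2% of values whole within 0.05, and give the depths and fragment counts; this build was used for coordinates because its lengths match the values. Fragments are not independent molecules, so intervals and floors cover counting error only.

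Log2(FPKM + 0.5) of the 11915 genes with FPKM of 0.3 or more in 3 of the 6 libraries was fitted with limma 3.58.1 (R 4.3.3; variance trend, 1 mean per group, all 12 libraries), and p-values were adjusted by Benjamini-Hochberg over these genes at 0.05. Fold changes are on that scale and understate changes of low genes. The contrasts with db/db-veh used 12884 genes. Median-of-ratios factors came from 5872 nuclear genes with FPKM of 1 or more in all 12 libraries. Single values were tested by two-sided exact permutation in Python 3.11.15 with scipy 1.17.1, and figures were drawn with matplotlib 3.10.9. On simulated data with the same number of libraries, 10% of 2-fold, 76% of 4-fold, 94% of 8-fold and 100% of 16-fold changes were called as deposited. There were 3 false calls among the unchanged ones of 11906 genes. Changes were placed only in genes with many fragments, all genes had the same spread, and no library stood apart as db/db-GABP-KD 1 does. These shares therefore do not carry over to genes with few fragments or a wider spread.

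The members and gene lists were chosen with earlier results of these data known. Genes were named by rule: GABP subunits and Gli1, up to 14 per direction with the largest change among genes called on both scales with a mean of at least 1 FPKM and no overlap, every gene called between the vehicle groups, and up to 4 per list. Named outside it, after their values were seen, were Acsm3, Clca3a1, Col12a1, Cpz, Gab2, Gclc, Gm853, Hbb-bs, Hsd17b2, Lcn2, Miox, Pck1, Pdk4, Per1, Ppl, Scand1, Slc22a6, Slc22a8, Slc22a19, Slc22a22, Slc22a29, Slc34a1, Slc5a2, Spp1, Ugt1a6a, Ugt1a7c and Ugt2b38. Alternatives were the pseudocount, the filter, the libraries in the fit, the variance trend, library weights, a replicate block, 2 other scalings, recovered fragments and leaving out each library. The db/m-GABP-OE libraries entered only the shared estimate of spread and the scaling.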

Additional observations from a re-analysis of the deposited data

How the results depend on the processing

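The 41 genes called as deposited became 26 with no filter, 17 when only the 6 libraries compared were fitted, 76 (17 higher, 59 lower) after quantile normalization and 899 with library weights, whose estimation did not converge. The 64 called after median of ratios became 31, 19 and 2475 with no filter, the 6 libraries alone and library weights. Without the filter more genes were tested (16442), and with the 6 libraries alone the spread was estimated from fewer libraries. The cause of these and the other shifts was not tested. Leaving out 1 library gave 18 to 63 calls as deposited and 17 to 73 after median of ratios. Counts stayed within 1.5 times with pseudocounts of 0.1 and 1, a filter of 1 FPKM, no variance trend, an equal sum of nuclear FPKM (47; 15 higher, 32 lower) and voom on recovered fragments (28 as deposited; 43 after median of ratios, chosen after seeing the data). With the replicate block 42 and 57 genes were called. Same-numbered libraries of the 2 groups did not deviate together (correlations -0.05, 0.08 and -0.25 as deposited), and differently numbered ones ran from -0.25 to 0.30. With 3 libraries a group these values cannot decide whether the numbers pair the libraries. The difference in the mitochondrial share of fragments or of FPKM ran from -10.8 to 3.03 percentage points over the leave-outs, and was -3.09 as a share of FPKM, a measure added after seeing the data. The higher Gabpa level relative to db/m-veh kept its direction in every alternative, by 0.815 to 2.79 FPKM over the leave-outs. Counting each gene under each alternative, 5938 values kept their side of the threshold, 204 passed only in the alternative and 262 lost the threshold. Some genes that were not called changed sign. For example, the log2 fold change of 2200002D01Rik after median of ratios was 0.03 in the main fit and -0.04 without db/m-veh 2. With 3 libraries a group, most simulated 2-fold changes were not called, and genes near the filter rest on few fragments.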

Other observations

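Of the called genes not described above, 5 enzyme genes and 3 others are given with values; they were chosen after their values were seen. Inmt, which methylates indoles and thioethers, stood at 164, 28.6 and 44.7 FPKM in db/m-veh and 21.0, 3.64 and 4.62 FPKM in db/db-GABP-KD, a log2 fold change of -3.19 (SE 0.53, adjusted p = 0.017) after median of ratios. Adh1, the class I alcohol dehydrogenase, fell from 50.6, 21.6 and 55.9 to 7.79, 8.19 and 10.3 FPKM, -2.32 (SE 0.39, adjusted p = 0.017). Ldhd, which oxidises D-lactate, fell from 33.7, 26.5 and 30.7 to 10.1, 9.64 and 10.4 FPKM, -1.76 (SE 0.30, adjusted p = 0.017), and Pecr, a peroxisomal enoyl-CoA reductase, from 36.4, 38.8 and 43.4 to 11.7, 11.1 and 14.4 FPKM, -1.85 (SE 0.30, adjusted p = 0.0143). Acy3, which splits mercapturic acids, fell from 445, 117 and 142 to 65.0, 23.4 and 37.2 FPKM, -2.55 (SE 0.48, adjusted p = 0.03). All 5 were called after median of ratios only, and in each the 3 libraries labelled GABP-KD lay below all 3 of db/m-veh. Leaving out libraries ended the call of Inmt without GABP-KD library 2 or 3 (adjusted p up to 0.0914), of Adh1 without lean library 1 or 3 or GABP-KD library 2 (adjusted p up to 0.0757), of Ldhd without lean library 1 or 3 or GABP-KD library 2 (adjusted p up to 0.0646), of Pecr without lean library 3 or GABP-KD library 2 (adjusted p up to 0.0536) and of Acy3 without lean library 1 or GABP-KD library 1, 2 or 3 (adjusted p up to 0.142). Exons of Adh1, Ldhd and Pecr overlap another annotated gene.

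Apela, a peptide ligand of the apelin receptor made in kidney, was called on both scales, at 8.93, 13.3 and 12.6 FPKM against 2.36, 2.09 and 2.69 FPKM, -2.24 (SE 0.40, adjusted p = 0.0226) after median of ratios, and lost its call on at least 1 scale without any 1 of the 6 libraries (adjusted p up to 0.179). Tlr12, a receptor of innate immunity, was low in lean kidney and listed at 0 in all libraries labelled GABP-KD (1.10, 0.323 and 0.573 against 0, 0 and 0 FPKM), at least 17.75-fold lower with that group set to a floor of 3 fragments in total. Tff1, a mucosal trefoil peptide, was likewise at 0 there (1.87, 1.67 and 0.762 against 0, 0 and 0 FPKM), at least 7.92-fold lower. Both genes are members only through the lean libraries, so their direction followed from the filter. On at least 1 scale Tlr12 lost its call without lean library 1 or 3 or GABP-KD library 1, 2 or 3 (adjusted p up to 0.305) and Tff1 without lean library 1 or 2 or GABP-KD library 2 or 3 (adjusted p up to 0.128). The other called genes not described were Clec2h, on both scales, and 2010003K11Rik, Defb29, Dnph1, Gcnt1, Gm128, Hsbp1l1, Hykk, Pcp4l1, Ptn and Tbxa2r, all lower after median of ratios only.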
